A study of Homo sapiens with 3 samples.

Results

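Pyrimidine-rich intronic clusters are the intronic MATR3 PAR-CLIP clusters in which C and T bases made up at least 80% of the cluster's sequence. They numbered 11164 of 73317 intronic clusters in the first wild-type library (WT rep1), 4005 of 22569 in the second (WT rep2) and 28 of 540 in the MATR3 knockout (KO) library, or 15197 of the 115227 clusters of every annotation in the 3 libraries. A cluster is a stretch of overlapping sequencing reads on a strand of a transcript, and the intronic label is the one given in the authors' table. The remaining intronic clusters of each library, 62153, 18564 and 512 in the same order, served as the reference. Membership was set by base composition alone, so the richness in C and T, and the scarcity of A and G that goes with it, describe the selection and are no findings.

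All libraries came from HAP1, a near-haploid human line derived from the chronic myeloid leukaemia line KBM-7. The 2 WT libraries carried no recorded modification, the KO library came from a purchased HAP1 line with the MATR3 gene knocked out, and the series names it as the negative control. No label says whether the knockout line is a single clone, and no treatment or time differed between groups. Every library was made by recovery on anti-FLAG beads, although no label records a FLAG tag in either genotype.

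MATR3 (matrin 3) is an abundant RNA- and DNA-binding protein of the nuclear matrix with zinc fingers and RNA recognition motifs, and it can repress the splicing of nearby exons. It interacts with the polypyrimidine tract-binding protein PTBP1, a splicing repressor that binds C- and T-rich stretches (C and U in RNA) of introns. Such stretches also lie just upstream of the AG at the 3′ end of most introns, where U2AF recognises them. In PAR-CLIP, a photoactivatable uridine analogue crosslinked to protein is read as C in place of T, so a T-to-C change marks a crosslinked position; RNase T1, used to trim the RNA, cuts after G.

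The clusters below show what these regions look like in both WT libraries, because the results turn on the length and the C and T order of their tracts. Capitals mark the longest unbroken run of C and T, and sequences read 5′ to 3′ as DNA letters from the authors' cluster tables, with hg38 coordinates (build per the submitters' processing notes). The first 6 are the overlapping pairs of pyrimidine-rich clusters that ranked first by the geometric mean of their reads, given as found in WT rep2.
RBM4, chr11:66646171-66646201, plus strand: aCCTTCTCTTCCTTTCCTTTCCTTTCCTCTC
GPC3, chrX:133913322-133913354, minus strand: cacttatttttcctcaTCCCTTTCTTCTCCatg
PRRC2C, chr1:171527976-171528009, plus strand: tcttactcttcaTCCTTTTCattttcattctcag
BTBD1, chr15:83062098-83062132, minus strand: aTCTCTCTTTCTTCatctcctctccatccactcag
ANKRD17, chr4:73243395-73243428, minus strand: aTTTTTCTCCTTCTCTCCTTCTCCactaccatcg
UBE2R2, chr9:33847617-33847649, plus strand: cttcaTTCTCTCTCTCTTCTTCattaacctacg
The GPC3 cluster had the same start and end in both WT libraries, and 4 others differed in length by 1 to 5 bases. RBM4 spanned 112 bases in WT rep1 and 31 in WT rep2. Purines in these sequences were mostly isolated A bases, with G almost only at the 3′ end.

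The longest unbroken runs show the extreme of the selection, and the cluster nearest below the limit shows how it was set. ZNF485, a zinc finger gene, held the longest run of WT rep1, with 41 bases and 23 reads. SHOC2, a scaffold of RAS signalling, held that of WT rep2, with 39 bases and 9 reads.
ZNF485, chr10:43611015-43611056, plus strand: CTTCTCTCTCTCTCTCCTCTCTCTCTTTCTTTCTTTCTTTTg
SHOC2, chr10:110920517-110920562, plus strand: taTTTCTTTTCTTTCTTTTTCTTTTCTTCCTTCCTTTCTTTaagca
BET1L, just outside, chr11:203897-203980, minus strand: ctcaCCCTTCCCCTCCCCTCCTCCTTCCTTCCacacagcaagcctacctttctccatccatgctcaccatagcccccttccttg
BET1L, which encodes a Golgi SNARE protein, had 79.8% C and T and 61 reads in WT rep1. BTBD1, whose cluster of 40 bases in that library stood at exactly 80%, had 463 reads and was the deepest just inside the limit. Clusters from 80% to below 82% numbered 3217, 1169 and 8 in WT rep1, WT rep2 and KO, with median reads of 22, 33 and 169. Those from 78% to below 80% numbered 3128, 981 and 4, with median reads of 22, 32 and 124.5, so no gap in number or reads lay at the limit in the WT libraries.

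The libraries differed widely in size. The tables list reads inside clusters only, 2668797, 1558995 and 224142 in WT rep1, WT rep2 and KO, and the weakest cluster in every library had 5 reads and 2 converted positions. Introns held 84.1%, 83.1% and 64.1% of all clusters. The knocked-out gene's own introns carried 52 and 26 clusters in the WT libraries, of which 2 and 3 were pyrimidine-rich, and the KO library listed no MATR3 cluster of any kind. The genotypes were not tested against each other, since a permutation of 3 libraries with 1 KO cannot give a p-value below 0.333. Clusters are not replicates of a genotype, and several can share a gene. Intervals given are 95% intervals that cover counting error only, and reads without molecular identifiers are not independent molecules.

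Pyrimidine-rich clusters made up a similar share of intronic clusters in the WT libraries and a smaller one in KO. The share was 15.2% (Wilson interval 14.97 to 15.5) in WT rep1, 17.7% (17.3 to 18.2) in WT rep2 and 5.19% (3.61 to 7.39) in KO. The WT libraries averaged 16.5% ± 1.78 (SD, n = 2), and both lay above the upper bound of the KO interval. The share in KO minus that in WT was -10.04 percentage points (Newcombe interval -11.6 to -7.82) against WT rep1 and -12.6 points (-14.2 to -10.3) against WT rep2. By reads instead of clusters, the share was 16.6%, 16.2% and 4.53%, from 366237, 200284 and 6078 reads in pyrimidine-rich clusters, and the WT mean was 16.4% ± 0.285 (SD, n = 2). Among the 540 deepest intronic clusters of each WT library, as many as KO has in all, 106 (19.6%, 16.5 to 23.2) and 105 (19.4%, 16.3 to 23.0) were pyrimidine-rich, so the gap to KO was as large at an equal number of clusters.

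**Figure D1:**
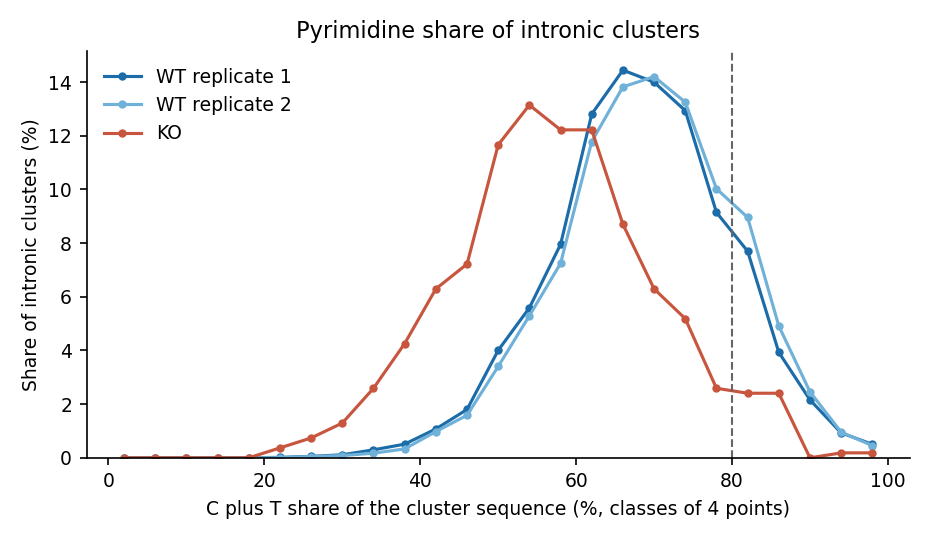
Distribution of the share of C and T bases (x axis, percent) over the intronic clusters of each library (y axis, percent of the library's intronic clusters), with a line for each library and the limit of 80% marked. The KO line lies to the left of both WT lines, with medians of 56.7% in KO and of 68.6% and 69.6% in the WT libraries.

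The whole distribution differed, beyond its upper end. The median C and T share over all intronic clusters was 68.6%, 69.6% and 56.7% in WT rep1, WT rep2 and KO. Within the pyrimidine-rich clusters the medians were close, at 83.9%, 83.9% and 84.2%. Clusters made of C and T alone were rare: 34 in WT rep1, 2 in WT rep2 and 0 of 28 in KO.

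The selection fixed the sum of C and T but not their proportion, which was almost the same as in other introns. T made up 59.1% of the C and T bases of pyrimidine-rich clusters in WT rep1 and 60.7% in WT rep2, against 59.3% and 61.1% in the other intronic clusters of the same libraries. The difference, pyrimidine-rich minus other, was -0.35 ± 0.128 points (SD, n = 2), less than the gap between the WT libraries themselves. In KO the values were 54.8% and 58.8%, from only 28 pyrimidine-rich clusters. Of all bases, T was 50.3%, 51.6% and 46.3% and C was 34.9%, 33.4% and 38.2% in WT rep1, WT rep2 and KO.

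The purines that remained were mainly A, and G was almost confined to the last base. G was the last base of 76.0%, 93.9% and 85.7% of pyrimidine-rich clusters in WT rep1, WT rep2 and KO, close to the 73.5%, 94.8% and 77.7% of other intronic clusters. At all other positions G made up 1.56%, 1.04% and 2.45% of bases, against 9.17%, 8.19% and 14.98%. A was 74.2%, 72.6% and 65.6% of the purines in pyrimidine-rich clusters and 68.3%, 68.2% and 61.9% in the others. The base before the last was T in 63.0%, 67.0% and 67.9% of pyrimidine-rich clusters that were at least 20 bases long. Those with no purine except a last G numbered 264 in WT rep1, 94 in WT rep2 and 0 in KO.

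Unbroken tracts were long. The longest run of C and T in a pyrimidine-rich cluster had a median of 14, 13 and 12.5 bases in WT rep1, WT rep2 and KO, and 7, 7 and 5 bases in the other intronic clusters, a difference that the selection favours. Runs of 20 or more bases occurred in 2217 (19.9%), 656 (16.4%) and 3 (10.7%) pyrimidine-rich clusters. The longest run of T alone was 18, 22 and 6 bases. Cluster length differed little: medians were 32, 30 and 28.5 bases, against 33, 32 and 30 for other intronic clusters, so the WT difference was -1.5 ± 0.707 bases (SD, n = 2).

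Alternating and mixed C and T words outnumbered homopolymers relative to base content. Of all words of 5 bases in pyrimidine-rich clusters, 51.6%, 52.0% and 52.0% were among the 32 made of C and T only. The most frequent per 1000 words were TTTCT (30.3 in WT rep1 and 31.5 in WT rep2), TTCTT (29.6 and 31.9), TCTTT (27.7 and 29.7), TTTTT (25.7 and 26.8) and TCTCT (25.2 and 24.0). Each word's frequency was then divided by the product of its bases' shares, which corrects for composition but not for the position of bases within a cluster. By this ratio TCTCT ranked first, at 1.63 in WT rep1, 1.57 in WT rep2 and 1.90 in KO, followed by CTCTC (1.59 and 1.46), CTTCC (1.45 and 1.49), TCTTC (1.36 and 1.57) and CTTTC (1.32 and 1.40) in the WT libraries.

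At the low end stood CCCCC, at 0.501 and 0.514 in the WT libraries, then CCCCT at 0.709 and 0.741, TTTTT at 0.801 and 0.737, TCCCC at 0.837 and 0.816, and CCCTT at 0.871 and 0.948. KO had no CCCCC in its 28 clusters. TTTTT was thus among the most frequent words by count and among the least frequent relative to its bases. In both WT libraries 23 of the 32 words lay above 1 and 7 below, and no ratio differed between them by more than 1.16-fold, the value for TCTTC. Across the 32 words, which overlap and so are not independent, the ratios of the WT libraries had a Pearson correlation of 0.965 and a Spearman correlation of 0.954. In the other intronic clusters TCTTC ranked first, with a geometric mean over the WT libraries of 1.94, then TCTCT with 1.88, and CCCCC again ranked last with 0.685. In the pyrimidine-rich clusters these words had 1.46, 1.60 and 0.508.

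Short motifs were counted on the transcript strand only, in clusters of 28 to 35 bases to hold length alike. This left 7878 pyrimidine-rich and 41105 other intronic clusters in WT rep1, 2035 and 10307 in WT rep2, and 15 and 302 in KO. TTCTT, a word found in binding sites of polypyrimidine tract-binding proteins, occurred in 53.5% and 56.2% of pyrimidine-rich clusters of the WT libraries and in 24.5% and 26.8% of the others. CTCTCT occurred in 17.0% and 15.3%, against 4.41% and 4.74%, and TCTT, which TTCTT contains, in 81.6% and 85.1%, against 50.7% and 54.4%. TTTTT was present in 33.8% and 35.5%, against 15.5% and 16.6%. These all consist of C and T, so a surplus follows from the selection.

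ATCTT, which contains TCTT and holds a single purine, is a motif reported for MATR3. It showed no such surplus: it was present in 14.1% of pyrimidine-rich and 13.9% of other intronic clusters of WT rep1, a difference of 0.124 points (-0.699 to 0.976), and in 14.4% and 15.3% in WT rep2, a difference of -0.883 points (-2.50 to 0.849). In KO it occurred in 0 of 15 pyrimidine-rich clusters, which is too few to tell a difference from 5.96% in the others. The selection limits the A that ATCTT needs and favours its C and T bases, so these shares depend on the selection too. Whether ATCTT was enriched or depleted beyond base composition was not tested.

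The sequence AG, with which introns end, was counted at the 3′ end of the cluster. AG closed 16.0% of pyrimidine-rich clusters in WT rep1 and 25.1% in WT rep2, and 24.9% and 38.2% of other intronic clusters. AG consists of purines, which the selection limits, so a lower share follows from it. RNase T1 cuts after G, and over all lengths G closed 76.0% and 93.9% of pyrimidine-rich clusters and 73.5% and 94.8% of the others. How far a closing AG reflects this cut was not tested. The full arrangement of a tract followed by AG, a run of at least 10 C or T, at most 3 further bases and a closing AG, was found in 6.87% and 10.8% of pyrimidine-rich clusters and in 2.25% and 3.30% of the others. The selection favours such runs, so these values are a description too. In KO, 1 of 15 had it (6.67%). GT, with which introns begin, opened 0.647% and 0.344% of pyrimidine-rich clusters in the WT libraries, against 0.837% and 0.757%. Distance to annotated splice sites was not measured, so these matches describe the letters and do not identify splice sites.

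Pyrimidine-rich clusters were found again in the other WT library more often than other intronic clusters. Clusters were taken as shared where they overlapped by at least 1 base on the same strand. In WT rep1, 981 of 11164 pyrimidine-rich clusters (8.79%, 8.28 to 9.33) overlapped a cluster of WT rep2, against 3555 of 62153 others (5.72%, 5.54 to 5.91). In WT rep2 the numbers were 1120 of 4005 (27.97%, 26.6 to 29.4) and 3451 of 18564 (18.6%, 18.04 to 19.2). The differences were 3.07 points (2.52 to 3.64) and 9.38 points (7.89 to 10.9), and the ratios of the shares 1.54 and 1.504, or 1.52 ± 0.0226 (SD, n = 2). The same overlaps make up a smaller share of the larger library, WT rep1.

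Sharing rose with the share of C and T. In WT rep2 it climbed from 3.42% of 146 clusters with less than 40% C and T, through 11.6% at 50% to 60% and 23.9% at 70% to 80%, to 27.3% at 80% to 85% and 33.3% of 111 clusters at 95% or more. WT rep1 rose from 1.23% of 733 clusters below 40% to 9.10% at 80% to 85%, and then stayed between 6.99% and 9.02% in the 3 classes above, whose intervals overlapped. In KO the classes were small: 0 of 50 clusters below 40% overlapped a WT cluster, 2 of 18 at 80% to 85%, 0 of 8 at 85% to 90%, and the 1 cluster in each of the 2 classes above did.

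**Figure D2:**
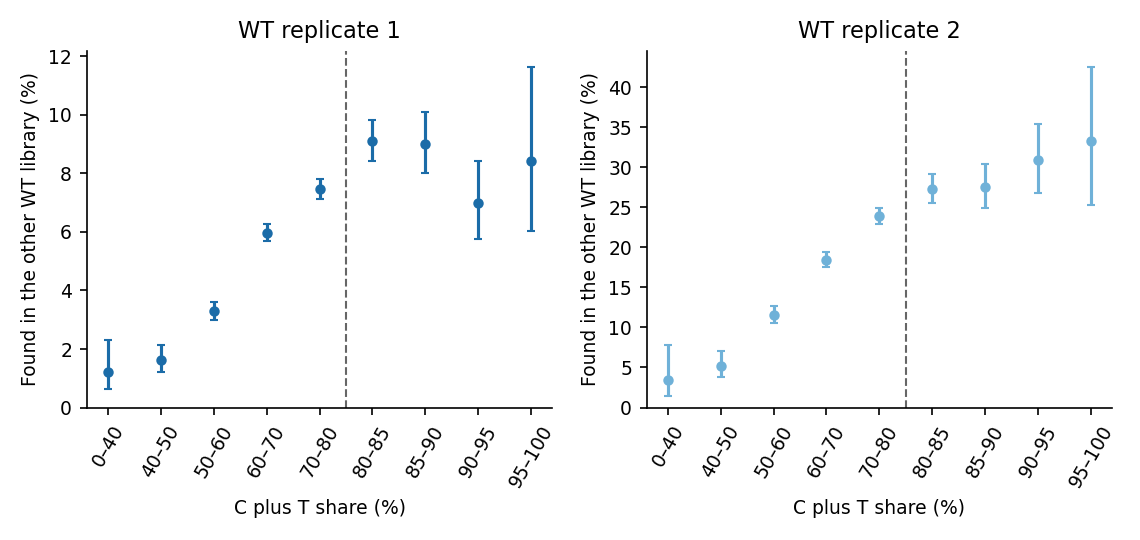
Share of intronic clusters that overlapped a cluster of the other WT library (y axis, percent) by class of C and T share (x axis, percent of bases), with WT rep1 on the left, WT rep2 on the right on its own scale, 95% Wilson intervals as bars and a dashed line at 80%. WT rep2 rises from 3.42% to 33.3% over the classes, while WT rep1 rises from 1.23% to 9.10% and levels off above 80%.

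The difference was present within most classes of reads per cluster. Deeper clusters were shared more often in either set, so the comparison was repeated within such classes. In WT rep1 pyrimidine-rich clusters were shared more often in the classes of 5 to 9 reads (5.01% against 2.81%), 10 to 19 (5.76% against 3.21%), 20 to 49 (8.22% against 5.17%) and 50 to 99 (14.6% against 12.6%). The intervals of the difference included 0 from 100 to below 200 reads (0.524 points, -3.89 to 5.25) and at 200 or more (1.496 points, -9.44 to 12.5). In WT rep2 the difference was widest from 50 to 99 reads, 33.8% against 19.1%, or 14.8 points (11.6 to 18.1). There the interval included 0 only at 200 or more reads, where 52 of 89 pyrimidine-rich and 173 of 346 other clusters were shared (58.4% against 50%).

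**Figure D3:**
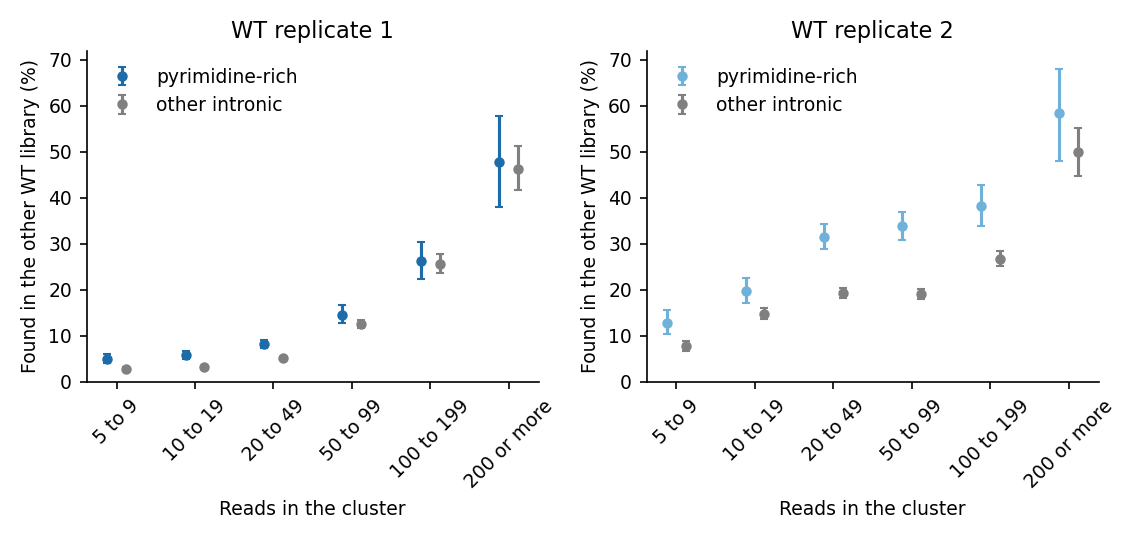
Share of intronic clusters that overlapped a cluster of the other WT library (y axis, percent) by class of reads per cluster (x axis), for pyrimidine-rich and other intronic clusters in each WT library, with 95% Wilson intervals as bars. The intervals of the sets are apart below 50 reads in WT rep1 and below 200 reads in WT rep2, for example 33.8% against 19.1% at 50 to 99 reads in WT rep2.

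Among pyrimidine-rich clusters, those rich in C were shared least in WT rep1. Where T was under 50% of the C and T bases, 5.07% of 2089 clusters were shared, against 9.70% of 3751 at 50% to 60%, 9.81% of 3446 at 60% to 70% and 9.21% of 1878 at 70% or more. In WT rep2 the corresponding shares were 25.4% of 539, 30.5% of 1266, 29.9% of 1376 and 22.6% of 824, so both ends of the range lay below the middle there, with an interval for the C-rich class (21.9 to 29.3) that overlapped those of the others. Median reads in the C-rich class were 18 in WT rep1, against 21 to 23 in the others.

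Many overlapping clusters had the same ends in both WT libraries. Of 866 overlapping pairs in which both clusters were pyrimidine-rich, 611 (70.6%) had the same 3′ end, 602 (69.5%) the same 5′ end and 426 (49.2%) both. In a further 368 pairs only 1 of the clusters reached 80%, and these had 38.0%, 27.4% and, since identical clusters have identical composition, 0. Pairs with at least 1 pyrimidine-rich cluster, 1234 in all, thus had 60.9%, 57.0% and 34.5%, against 56.7%, 54.9% and 34.7% of the 3344 pairs of other intronic clusters. The 866 and the 3344 pairs each require both clusters to lie on the same side of the limit, while the 1234 pairs do not. Whether the higher values of the 866 pairs come from this condition was not tested. Reads in the members of a pair had a Pearson correlation of 0.486 on the log2 scale and a Spearman correlation of 0.481 over the 866 pyrimidine-rich pairs, and 0.377 and 0.366 over the 3344 others. These correlations run over pairs of clusters in the same 2 libraries. The WT libraries together covered 14303 distinct pyrimidine-rich loci.

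Depth per cluster did not separate the sets in the same way in both WT libraries. Median reads were 21 in pyrimidine-rich and 20 in other intronic clusters of WT rep1, 31 and 40 in WT rep2, and 141.5 (72 to 295) and 242.5 (216 to 271) in KO. The ratio of medians was thus above 1 in WT rep1 and below 1 in WT rep2. Median distinct read sequences were 3 in either set of both WT libraries and 6 against 7 in KO. The highest read counts among pyrimidine-rich clusters were 1342, 1252 and 1199.

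A smaller share of T events carried the crosslink change in pyrimidine-rich clusters. A T event is a T position covered by a read, either converted to C or not. Converted events made up 6.56% of T events in pyrimidine-rich clusters of WT rep1, 6.30% in WT rep2 and 6.48% in KO, against 8.40%, 8.13% and 10.8% in other intronic clusters. The WT difference was -1.84 ± 0.0181 points (SD, n = 2), larger than the gap between the WT libraries. The selection raises the number of T bases, the denominator of this share. With T left out of the selection (C at least 50% of the bases other than T), the difference was -0.633 points. That rule took in 44.4% of intronic clusters as a WT mean, against 16.5%, so both the set and its reference changed. Every cluster had at least 2 converted positions by selection, which bounds these shares from below.

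Per read, however, the sets had nearly the same number of converted events. Pyrimidine-rich clusters had 1.06, 1.03 and 0.934 converted events per read in WT rep1, WT rep2 and KO, and the others 1.07, 1.07 and 1.08. T events per read, in contrast, were 16.2, 16.4 and 14.4 against 12.7, 13.1 and 10.1. The median share of a cluster's reads with a conversion was 92.1%, 97.5% and 97.5%, against 94.4%, 97.6% and 97.2%. Nearly every read in either set thus carried a conversion. The converted share is converted events per read divided by T events per read, and the selection raises the latter. The lower converted share is therefore no separate finding about crosslinking. The mean number of converted positions per cluster was 3.399, 2.52 and 3.14, against 2.93, 2.35 and 2.41, and as a share of the T positions 20.7%, 16.3% and 23.7%, against 21.996%, 18.5% and 24.6%. Conversions were thus spread over more positions per cluster and over a slightly smaller share of the T bases.

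**Figure D4:**
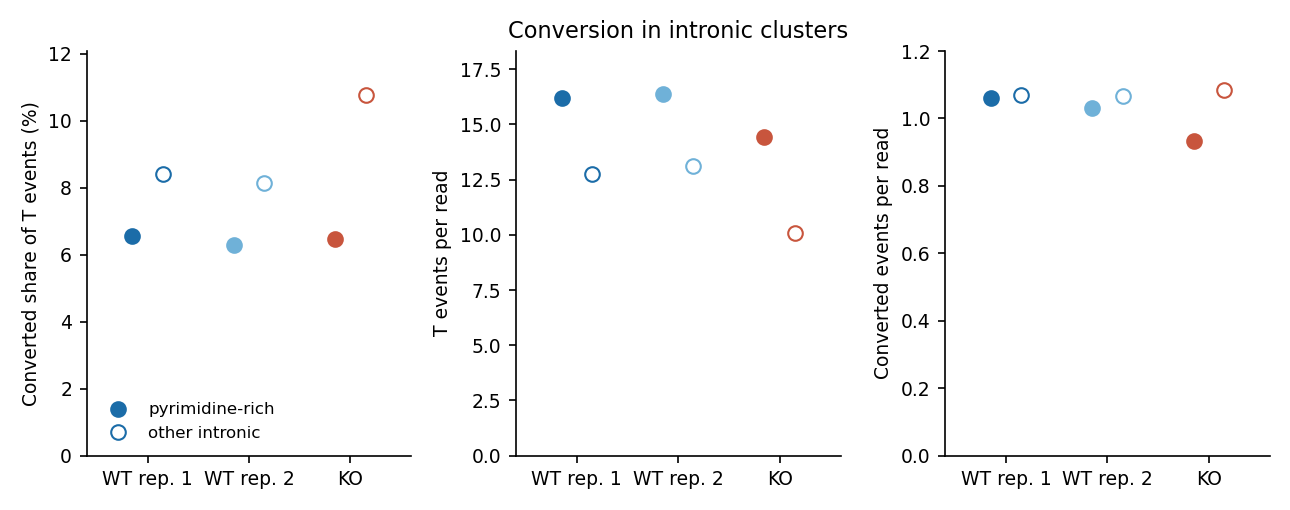
Converted share of T events (left, percent), T events per read (middle) and converted events per read (right) for pyrimidine-rich (filled points) and other intronic clusters (open points) of each library, each point pooled over the library's clusters. In WT rep1 the pyrimidine-rich value is lower on the left (6.56% against 8.40%), higher in the middle (16.2 against 12.7) and close on the right (1.06 against 1.07).

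In KO, the 28 pyrimidine-rich clusters lay in 27 genes, had 5 to 1199 reads and together held 6078 reads. A single RBM4 cluster held 19.7% of these, while the deepest RBM4 cluster held 0.366% and 0.307% of the pyrimidine-rich reads in the WT libraries. The 3 deepest are shown, because they mark the sites recovered where MATR3 was knocked out.
RBM4, chr11:66646171-66646204, plus strand: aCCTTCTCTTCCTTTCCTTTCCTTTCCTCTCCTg
PUS1, chr12:131932694-131932721, plus strand: caacaTTCTCTTTTCTTTCCTTTTTTag
SORL1, chr11:121579975-121580004, plus strand: aattcttccaTTTCTTCCTggcctcttttg
RBM4, a splicing regulator with RNA recognition motifs, had 1199 reads, PUS1, a pseudouridine synthase, 508, and SORL1, a sorting receptor, 475.

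Few sites in number were found in both WT and KO. Of the 28 pyrimidine-rich KO clusters, 4 (14.3%, 5.70 to 31.5) overlapped a WT cluster, against 23 of 512 other intronic KO clusters (4.49%, 3.01 to 6.65). The difference was 9.79 points (0.94 to 27.1), from 4 clusters. From the WT side, 3 of 11164 pyrimidine-rich clusters of WT rep1 (0.0269%) and 3 of 4005 of WT rep2 (0.0749%) overlapped a KO cluster, against 19 (0.0306%) and 7 (0.0377%) of other intronic clusters, with intervals that overlapped in both libraries. KO had only 842 clusters of any annotation, which keeps these WT-side shares small. They cannot be set against the sharing between the WT libraries. The RBM4 cluster had 1199 reads in KO, 1342 in WT rep1 and 614 in WT rep2, and its converted share of T events was 1.83%, 3.72% and 4.20%. It spanned 34, 112 and 31 bases in the same order, so these values cover unlike regions. NAP1L1, a histone chaperone gene, had 72 reads in KO, 179 in WT rep1 and 184 in WT rep2, over 26, 57 and 52 bases. Another pyrimidine-rich NAP1L1 cluster of KO, with 151 reads, overlapped no WT cluster.

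SEPT11, a septin gene, had 318 reads in KO and 29 in WT rep1, and ADSS, an enzyme of purine synthesis, had 31 reads in KO and 19 in WT rep2. All 6 WT clusters at these 4 sites were pyrimidine-rich as well. The reads are not scaled to library size or cluster length, so these counts give presence and not relative level. By the geometric mean of reads RBM4 was the deepest shared pyrimidine-rich site of the WT libraries, and it was the deepest of KO.

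By gene, pyrimidine-rich clusters were spread thinly. They lay in 4430 genes of WT rep1 and 2302 of WT rep2, of which 2044 and 1416 had only 1. Both WT libraries shared 1882 genes, 42.5% of those of WT rep1 and 81.8% of those of WT rep2, and 81 genes had 5 or more in both. Over the 1882 genes, the Spearman correlation of the number of pyrimidine-rich clusters was 0.409 between the WT libraries. The share of a gene's intronic clusters that was pyrimidine-rich agreed less, with a Spearman correlation of 0.139 over the 116 genes with at least 20 intronic clusters in both. Of the 27 genes with a pyrimidine-rich cluster in KO, 19 had them in both WT libraries. Over all genes with an intronic WT cluster this share was 22.9%. The 27 genes were not matched to the others for their number of intronic clusters.

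The genes with the most pyrimidine-rich clusters had many intronic clusters of any composition. SND1, a nuclease and transcriptional coactivator, had 33 pyrimidine-rich of 171 intronic clusters in WT rep1 and 14 of 74 in WT rep2. GPC3, a glypican of the cell surface, had 19 of 125 and 20 of 104. AUTS2, a regulator of neurodevelopment, had 22 of 120 and 13 of 64. These genes held 19.3% and 18.9%, 15.2% and 19.2%, and 18.3% and 20.3% pyrimidine-rich clusters, close to the libraries' 15.2% and 17.7%.

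The next genes by the geometric mean over the WT libraries were ADGRV1, an adhesion receptor gene (19 of 136 and 12 of 59), HDAC9, a class IIa histone deacetylase gene (22 of 147 and 10 of 74), and DIAPH2, a formin gene (17 of 76 and 11 of 33). They were followed by PPFIA2, a liprin gene (21 of 147 and 8 of 35), ADK, which encodes adenosine kinase (18 of 76 and 9 of 32), and MLLT10, a cofactor of the histone methyltransferase DOT1L (16 of 82 and 10 of 45). LRBA, a gene of vesicle trafficking, had 14 of 74 and 10 of 23, DLGAP1, a postsynaptic scaffold gene, 16 of 129 and 7 of 47, and ANKRD17, which encodes an ankyrin repeat protein, 11 of 109 and 9 of 40. None of these 12 genes, chosen by their WT counts, had a pyrimidine-rich cluster in KO. Only 27 genes had one there, and the 12 had 0 to 3 intronic KO clusters each.

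Of the 24 gene shares in the WT libraries, 3 had an interval above the library's own share and 0 below. These were ADK in WT rep1 (23.7%, 15.5 to 34.4), and DIAPH2 (33.3%, 19.8 to 50.4) and LRBA (43.5%, 25.6 to 63.2) in WT rep2. In the other WT library the interval of each of these genes included the library's share. The genes were chosen for their number of pyrimidine-rich clusters, so these shares describe them.

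**Figure D5:**
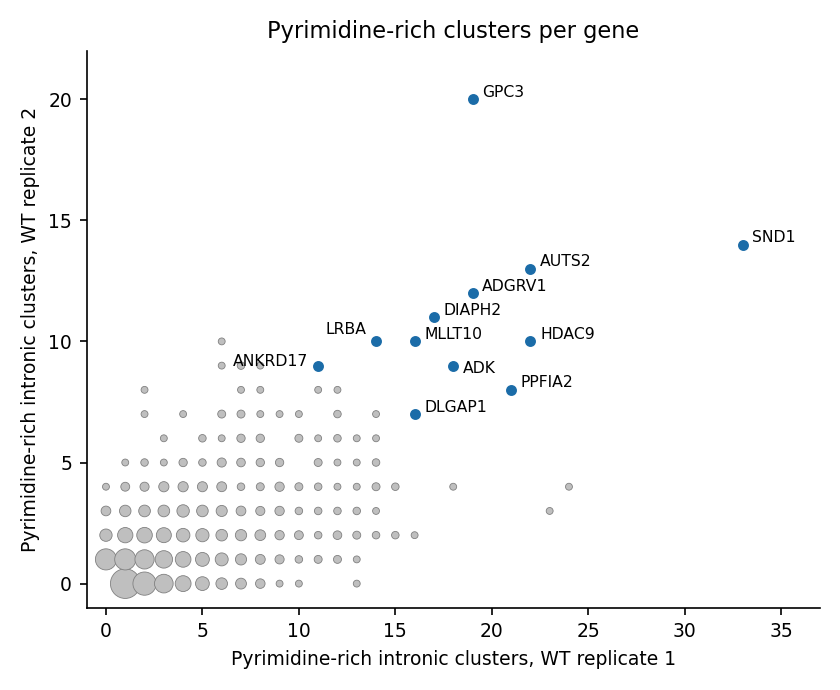
Number of pyrimidine-rich intronic clusters per gene in WT rep1 (x axis) and WT rep2 (y axis), with the 12 genes that had the most as named blue points and all other genes as grey points whose area grows with the number of genes at that place. Most genes lie near the origin, SND1 stands furthest right with 33 and 14, and GPC3 stands highest with 19 and 20.

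The clusters of these genes look like those of the set at large. The deepest of SND1 was the same in both WT libraries, with 204 and 120 reads, and that of MLLT10 in WT rep2 had 289 reads.
SND1, chr7:127788695-127788728, plus strand: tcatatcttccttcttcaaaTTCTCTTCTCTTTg
MLLT10, chr10:21552747-21552811, plus strand: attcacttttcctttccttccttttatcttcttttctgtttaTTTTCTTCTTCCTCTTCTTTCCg
DIAPH2, WT rep2, chrX:96699680-96699714, plus strand: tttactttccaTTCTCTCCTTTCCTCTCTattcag
LRBA, WT rep2, chr4:150707622-150707654, minus strand: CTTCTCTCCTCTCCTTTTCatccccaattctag
The DIAPH2 and LRBA clusters, of 185 and 162 reads, are those of the genes whose interval lay above the share of WT rep2. Both end in AG and hold a longest run of 18 and 19 bases. In both, more bases separate this run from the AG than the arrangement of a tract followed by AG, as defined above, allows.

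Genes of polypyrimidine tract-binding proteins and of their raver partners, and genes whose exons these proteins are long known to regulate, were examined as a list of 13. Of these, 11 had an intronic cluster in a WT library, 7 had a pyrimidine-rich one, 6 had it in both WT libraries and 0 in KO. Over all 8206 genes with an intronic WT cluster, 4850 (59.1%) had a pyrimidine-rich one and 22.9% had it in both. A gene with more intronic clusters is likelier to count here. The 6 genes had 18 to 35 each in WT rep1, where 73317 lay over 7879 genes in all. The intervals of the listed genes' pyrimidine-rich shares all included the library's share in both WT libraries. In KO only 27 genes had a pyrimidine-rich cluster. PTBP2, the neuronal paralog of PTBP1, had 6 pyrimidine-rich of 35 intronic clusters in WT rep1 and 5 of 17 in WT rep2, and PTBP3 had 5 of 22 and 2 of 5. PTBP1 itself had 0 of 11 in WT rep1 and no intronic cluster in WT rep2.

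Among the other genes of the list, ACTN1, encoding an actinin, had 6 of 29 and 1 of 4, FGFR2, a growth factor receptor gene, 5 of 18 and 1 of 8, and PKM, encoding pyruvate kinase, 4 of 34 and 2 of 12. TPM1, encoding a tropomyosin, had 2 of 25 and 1 of 6, and SRC, a tyrosine kinase gene, 1 of 3 and 0 of 2. CASP2 and the raver genes RAVER1 and RAVER2 had intronic clusters but no pyrimidine-rich one, and FAS and DLG4 had no intronic cluster. The FGFR2 cluster was the only deepest one of these 5 genes found in both WT libraries at the same site, with 150 and 72 reads, and it is almost pure C and T. It is shown beside PTBP2 and ACTN1 clusters.
FGFR2, WT rep1, chr10:121553241-121553276, minus strand: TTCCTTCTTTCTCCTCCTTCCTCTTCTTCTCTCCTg
PTBP2, WT rep1, chr1:96780214-96780247, plus strand: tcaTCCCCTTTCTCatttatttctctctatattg
PTBP2, WT rep2, chr1:96780350-96780383, plus strand: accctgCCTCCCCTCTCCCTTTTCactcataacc
ACTN1, WT rep1, chr14:68900482-68900514, minus strand: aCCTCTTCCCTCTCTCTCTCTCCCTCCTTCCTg
The PTBP2 clusters had 180 and 222 reads, and each overlapped a cluster of the other WT library. The ACTN1 cluster had 28 reads and was not found in the other.

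Clusters near each other were no more frequent among pyrimidine-rich ones. Within 500 bases on the same strand, measured between cluster centres, 39.4% of pyrimidine-rich and 42.5% of other intronic clusters of WT rep1 had another intronic cluster, and 24.1% and 25.5% in WT rep2. Of the neighbours of pyrimidine-rich clusters, 15.3% were pyrimidine-rich themselves in WT rep1, against 12.7% of the neighbours of others, and 16.5% against 16.5% in WT rep2. In KO only the 2 NAP1L1 clusters were neighbours. Overlapping genes are uncertain throughout, since each cluster carries a single gene name. Where the name was a current RefSeq symbol, 10635 of 10676, 3832 of 3841 and 25 of 25 pyrimidine-rich clusters of WT rep1, WT rep2 and KO lay inside that gene's interval (GRCh38).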

How the data were processed

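PAR-CLIP clusters from 2 WT libraries and 1 KO library were analysed. Per the labels' protocols, crosslinked cells were lysed, RNA was trimmed with RNase T1, and the bound RNA was recovered and cloned as small RNA. The submitters' processing notes name cutadapt 1.8.3, Bowtie 1.1.2 and the builds hg38 and GRCh38.p5; the cluster caller and its filters are not given in the sources used here. The deposited tables hold raw counts per cluster of reads, distinct reads, converted positions and T events, per the file headers. A deposited fraction states how many of the reads in a cluster carry a conversion, and another how many end in G. Clusters were listed by the authors separately for each library. No label gives a date or batch, and library depth is unknown, and the series design calls the WT libraries independent replicates without naming cultures.

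Base composition, runs, words and motifs were computed from the cluster sequences with Python 3.11.15, pandas 2.3.3 and numpy 2.4.6, in scripts tested on simulated data. Gene names were matched to RefSeq symbols and synonyms (GRCh38.p14), which held 4413 of 4430, 2297 of 2302 and 27 of 27 gene names. No test was made: shares carry Wilson intervals and differences Newcombe intervals. Members and lists were chosen with earlier results of these data known. Named genes were the 12 with the most pyrimidine-rich clusters by geometric mean over the WT libraries, and a list of 13 (1 further gene of the list is not reported here). Named clusters were the 6 deepest shared pairs, the 3 deepest in KO, the longest run per library, and the deepest just inside and just outside the limit; deepest clusters of named genes were added after their values were seen. Named words were the 5 most frequent, and the 5 highest and 5 lowest relative to base content. Clusters on chromosome 8 were counted but their sequences are not printed. Alternatives changed the C and T limit, minimum reads or converted positions, the cluster ends, the role of T, clusters per gene, the overlap and the libraries; those with equal numbers of clusters, and with genes found in the other WT library, were chosen after seeing the data.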

Additional observations from a re-analysis of the deposited data

Results flagged for a closer look

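Under every other annotation examined except coding exons, clusters with at least 80% C and T made up a larger share in the WT libraries than in the KO control. Clusters without annotation and those in 3′ untranslated regions are given here, and the rest under the other observations below. Clusters with at least 80% C and T were 15.7% of the clusters without annotation in WT rep1 and 16.2% in WT rep2, against 3.17% (1.24 to 7.88) in KO. In 3′ untranslated regions they made up 15.7% and 19.01%, against 3.77% (1.04 to 12.8) in KO, where 2 of 53 clusters qualified.

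The deposited fraction of a cluster's reads that carried a conversion differed little between the sets in WT rep2 and KO, with opposite signs. Its median over pyrimidine-rich clusters minus that over other intronic clusters was -2.34 points in WT rep1, -0.061 points in WT rep2 and 0.325 points in KO. The WT mean was -1.20 ± 1.61 points (SD, n = 2), and WT rep2 lay nearer to KO than to WT rep1. The KO value rests on 28 pyrimidine-rich clusters of 1 library, and the genotypes were not tested against each other.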

How the results depend on the processing

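The share of intronic clusters that were pyrimidine-rich was lower in KO than in WT under every alternative, but its size followed the definition. The WT mean of 16.5% became 30.4% at a limit of 75%, 2.42% at 90%, 21.2% with at least 3 converted positions, 25.3% with 3 bases removed from each end, 44.4% with T left out and C at least 50% of the other bases, and 19.5% with the deepest 540 clusters. KO minus WT became -20.6, -2.05, -17.2, -24.4 and -14.4 points at the limits of 75% and 90%, with trimmed ends, with T left out and with 540 clusters. The converted share, pyrimidine-rich minus other, became -1.81 at 75%, -2.13 at 90%, -1.81 with at least 10 reads, -1.46 with 3 converted positions, -1.71 with trimmed ends, -0.633 with T left out and -1.75 with 1 cluster per gene. With T left out, T was 55.7% of C and T and the length difference -0.5 bases. Genes with a pyrimidine-rich cluster in both WT libraries numbered 2871 at 75%, 239 at 90%, 749 with 3 converted positions and 3525 with T left out. The other 48 comparisons of a value with its alternative moved by less than the spread between the WT libraries or, for gene counts, by less than 1.5-fold. Those that left out a WT library were bound to do so. The mean of 2 libraries always lies nearer to each of them than their SD.

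Leaving out either WT library gave shares of 15.2% to 17.7%, KO minus WT of -12.6 to -10.04 points, ratios of median reads of 0.775 to 1.05, converted differences of -1.85 to -1.82 points, T shares of 59.1% to 60.7% and length differences of -2 to -1 bases; the read ratio alone crossed 1. The surplus of sharing stayed between 4.48 and 8.94 points as a WT mean, but among clusters of at least 100 reads it was 0.22 points in WT rep1 and 12.3 in WT rep2. No paired analysis was possible because KO has 1 library, so the groups share fewer than 2 replicate numbers. The 28 KO clusters limit every KO value, and library depth outside clusters is unknown.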

Other observations

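Clusters with at least 80% C and T also occurred under other annotations. In introns of long intergenic noncoding RNAs they made up 183 of 1089 clusters in WT rep1 (16.8%, 14.7 to 19.1), 61 of 369 in WT rep2 (16.5%, 13.1 to 20.7) and 1 of 18 in KO. In repeats they made up 360 of 1909 (18.9%, 17.2 to 20.7), 104 of 526 (19.8%, 16.6 to 23.4) and 2 of 35. Coding exons had lower WT shares, with 22 of 377 (5.84%, 3.88 to 8.68) in WT rep1 and 13 of 185 (7.03%, 4.15 to 11.7) in WT rep2, and 2 of 26 in KO (7.69%, 2.14 to 24.1). Only in coding exons was the KO share not below that of both WT libraries, among the 5 annotations set beside introns, and the KO counts there were 1 to 4 clusters each.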
